A study of Rattus norvegicus with 12 samples.

Results

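The immediate early activity genes described here are 39 listed genes, many of which neurons, glia or vessel cells switch on soon after a stimulus. They were taken from a list of symbols, and all 39 were found among the 17172 genes counted in each library. They were sorted by their known roles into 16 neuronal genes, 4 vascular genes and 19 genes used by many cell types. The sorting rests on background knowledge and not on sorted cells, and genes and classes were chosen with earlier results of these data known. Neuronal and vascular name where a gene is best known, not where its RNA came from in these libraries. A filter on low counts left 38 of the 39 in the tests. The gene left out was Fosl1, which encodes an AP-1 subunit and had 1 to 4 counts in every library.

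Immediate early genes need no new protein to be transcribed: factors already present, such as CREB, the serum response factor and the MEF2 proteins, are modified when calcium or growth factor signals reach the nucleus. In hippocampal granule neurons, synaptic activity induces transcription factors of the FOS, EGR and NR4A families, together with effectors such as Arc that act at the synapse. In endothelial cells, shear stress of flowing blood induces Klf2 and Klf4, and stretch and growth factors induce Cyr61. A further set, including the phosphatase Dusp1 and the RNA-binding protein Zfp36, ends the signal again in most cell types.

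RNA was measured in the ventral dentate gyrus, the part of the hippocampus that holds the granule cells, of male rats whose strain the labels give as Sprague-Dawley, in 12 libraries and 4 groups of 3. LAC responders and LAC non-responders were rats of the Flinders Sensitive Line (FSL), a selectively bred line used as a model of depression, that drank L-acetyl-carnitine (LAC), an acetylated carnitine, dissolved at 0.3% w/v in tap water during 7 days, which the labels put at about 210 mg/kg daily. FSL vehicle rats had tap water alone, as did rats of the Flinders Resistant Line (FRL), the control line of the FSL. The sources used here do not give the age of the rats, the number of animals behind a library or the test that told responders from non-responders. The p-values measure the spread between these libraries, which the labels call biological replicates.

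Counts in genes summed to between 5905387 and 8137618 per library, and levels below are counts per M counts (CPM, M for mega) on TMM-scaled totals, not corrected for gene length, so they are compared between libraries and not between genes. Markers of dentate granule neurons were present in all libraries, but Prox1, the factor that keeps granule cell identity, was at 9.19 CPM in responder 1 and 10.4 CPM in FRL vehicle 2, against 51.6 to 129 CPM in the other 10. Thalamic markers summed to 586 CPM in responder 1, against 131 to 268 CPM elsewhere. Their mean log2 CPM was 5.14 in responder 1 and 5.01 in FSL vehicle 3. Choroid plexus markers were high in non-responder 1, FSL vehicle 1 and FSL vehicle 3, with a mean log2 CPM of 6.16, 5.42 and 3.28, against -0.33 to 1.43 in the other 9 libraries. Meningeal markers were highest in FSL vehicle 3, with a mean log2 CPM of 6.60, against 2.38 to 5.31 elsewhere. No pair of libraries was a duplicate: their log2 CPM correlated across genes at 0.934 to 0.990.

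Promoters of 29 of the 39 genes were found in the RefSeq table for build GRCr8, as windows from 250 bases before to 50 bases after the start. None was found for Fos, Arc, Egr3, Nr4a3, Klf2, Atf3, Jun, Dusp4, Klf10 and Trib1, so these genes were not searched. Of the genes given below with every library, 5 held a full cAMP response element (CRE, TGACGTCA), a CArG box, which binds the serum response factor, or an EGR site (GCGNGGGCG). Sik1 held 1 EGR site, and the other 4 promoters are printed 5′ to 3′ on the gene's strand with those motifs in capitals.
Egr1, chr18:26736828-26737127, plus strand, with CArG boxes at -105 to -96 and -83 to -74: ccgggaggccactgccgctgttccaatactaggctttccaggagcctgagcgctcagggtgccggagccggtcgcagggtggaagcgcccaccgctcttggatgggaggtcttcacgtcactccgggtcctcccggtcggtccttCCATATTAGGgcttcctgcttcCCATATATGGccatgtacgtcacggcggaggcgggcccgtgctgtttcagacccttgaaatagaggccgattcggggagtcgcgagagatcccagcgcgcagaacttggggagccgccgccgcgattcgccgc
Nr4a1, chr7:134259888-134260187, plus strand, with an EGR site on the opposite strand at -73 to -65: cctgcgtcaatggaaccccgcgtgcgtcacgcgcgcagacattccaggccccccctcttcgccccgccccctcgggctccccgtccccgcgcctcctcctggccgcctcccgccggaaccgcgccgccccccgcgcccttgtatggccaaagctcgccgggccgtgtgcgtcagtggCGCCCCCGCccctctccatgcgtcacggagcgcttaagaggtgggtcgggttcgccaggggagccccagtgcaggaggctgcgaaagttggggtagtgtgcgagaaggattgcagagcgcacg
Dusp1, chr10:17184603-17184902, plus strand, with a CRE at -124 to -117: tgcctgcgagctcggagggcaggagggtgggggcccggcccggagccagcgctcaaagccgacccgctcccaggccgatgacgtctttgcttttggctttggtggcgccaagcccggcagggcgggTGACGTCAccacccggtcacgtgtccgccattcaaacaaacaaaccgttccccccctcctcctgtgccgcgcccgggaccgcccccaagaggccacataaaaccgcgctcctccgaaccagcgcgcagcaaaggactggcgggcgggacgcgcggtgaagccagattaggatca
Zfp36, chr1:92799059-92799358, minus strand, with an EGR site at -79 to -71 and a CArG box at -32 to -23: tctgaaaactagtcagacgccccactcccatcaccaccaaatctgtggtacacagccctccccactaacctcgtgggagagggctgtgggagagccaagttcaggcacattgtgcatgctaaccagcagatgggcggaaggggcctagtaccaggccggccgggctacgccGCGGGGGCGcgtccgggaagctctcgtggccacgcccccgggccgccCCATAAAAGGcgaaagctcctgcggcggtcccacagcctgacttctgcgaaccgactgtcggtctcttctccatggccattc

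Searched on both strands, the full CRE stood in 5 of the 29 promoters, 17.2%, against 1.83% of all 33465 promoters of that length. The 5 were all among the 14 shared genes with a promoter, with 0 of 12 neuronal and 0 of 3 vascular promoters. The CRE core (TGACG), which every full CRE also holds, stood in 58.6% of the 29 against 21.2% of all. CArG boxes stood in 5 of the 29, 17.2% against 1.64%, and EGR sites in 9, 31% against 4.98%. The EGR sites were in 7 of 14 shared, 2 of 12 neuronal and 0 of 3 vascular promoters. The TATA motif (TATAAA) stood in 8 of the 29, 27.6% against 14.2%, and the AP-1 motif (TGANTCA) in 0 of the 29 against 7.33% of all. A match describes these letters in this window and is not a measured binding site.

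**Figure D1:**
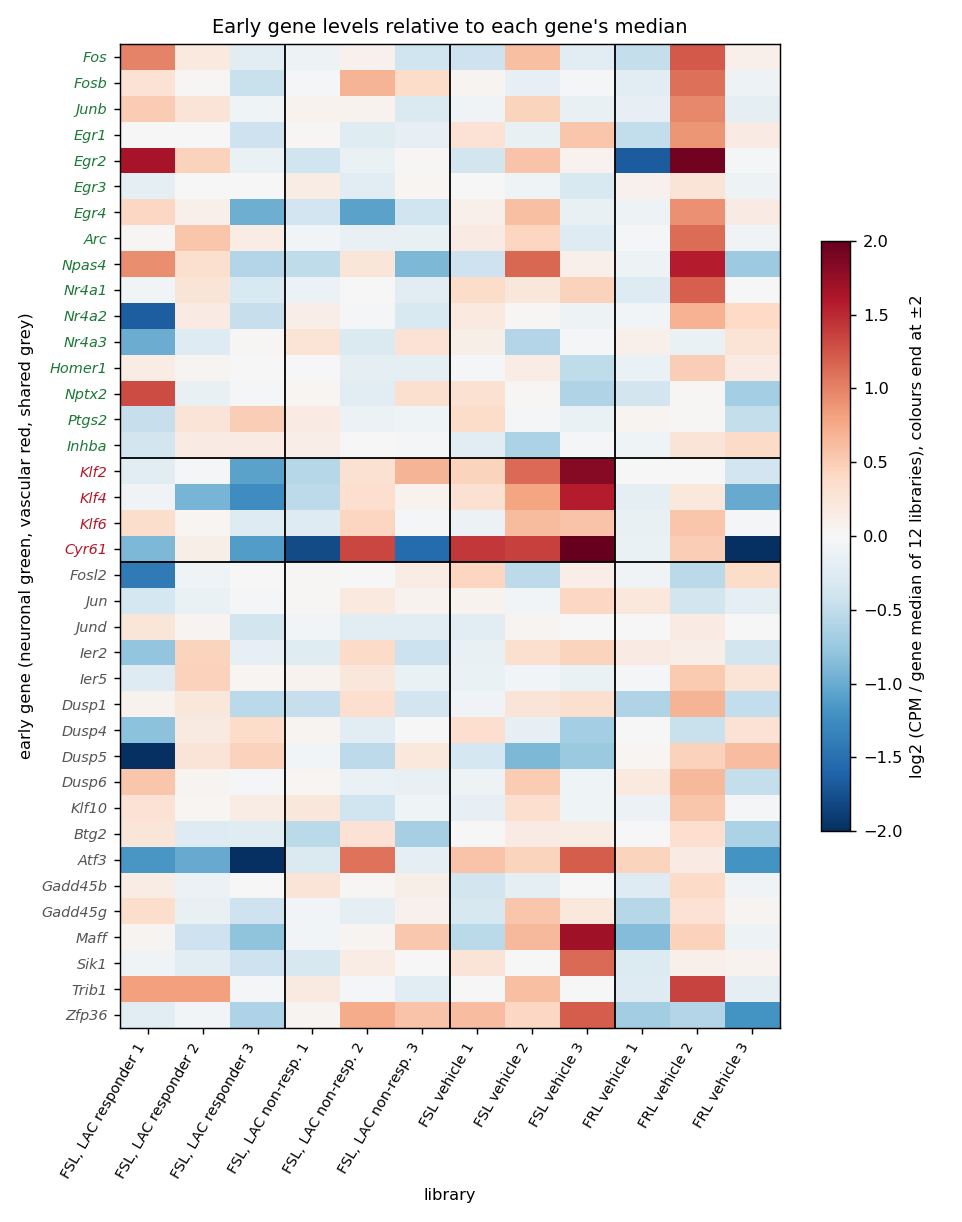
Log2 of each early gene's CPM over its median across the 12 libraries, for the 38 genes tested (rows, by class) in each library (columns, by group), with colours ending at 2 on either side. FRL vehicle 2 has the highest value in 12 of 16 neuronal rows, and FSL vehicle 3 in 3 of 4 vascular rows.

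Among neuronal early genes 1 library stood out. FRL vehicle 2 had the highest level of 12 of the 16. Of the other 4, Nptx2 was highest in responder 1, Ptgs2 in responder 3, Nr4a3 in non-responder 3 and Inhba in FRL vehicle 3. The ratio of the highest to the lowest of 12 libraries had a median of 2.71 over the 16 genes, with Egr3 at 1.48 and Egr2 at 12.1 as its ends.

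Fos, whose protein pairs with JUN proteins in the AP-1 factor, had 54.9, 31.6 and 23.6 CPM in responders, 25.9, 29.4 and 21.1 CPM in non-responders, 20.8, 41.8 and 23.7 CPM in FSL vehicle and 19.9, 64.7 and 29.8 CPM in FRL vehicle. Npas4, a factor induced by calcium entry in neurons, had 23.2, 15.2 and 8.1 CPM in responders, 8.58, 14.4 and 6.50 CPM in non-responders, 9.09, 27.1 and 13 CPM in FSL vehicle and 11.3, 36.1 and 7.33 CPM in FRL vehicle. Both were high in FRL vehicle 2, responder 1 and FSL vehicle 2, 1 library in each of 3 groups, and no pair of groups was separated.

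Arc, a synaptic protein that removes AMPA receptors from the membrane, had 121, 175 and 132 CPM in responders, 114, 107 and 108 CPM in non-responders, 133, 160 and 99.9 CPM in FSL vehicle and 117, 259 and 113 CPM in FRL vehicle. Egr1, a zinc finger factor of activity-dependent plasticity whose promoter with 2 CArG boxes is printed above, had 40.4, 39.8 and 30.2 CPM in responders, 40.6, 34 and 35.8 CPM in non-responders, 48.9, 36.1 and 58.8 CPM in FSL vehicle and 28.6, 73.6 and 44.8 CPM in FRL vehicle. Nr4a1, an orphan nuclear receptor, had 45.5, 56.6 and 38.3 CPM in responders, 43.7, 46.9 and 40.8 CPM in non-responders, 61.2, 55.2 and 65.0 CPM in FSL vehicle and 39.5, 108 and 47.5 CPM in FRL vehicle. FRL vehicle 2 was the highest library for all 3 of these genes. The responders' Arc levels lay above all non-responder levels, and the non-responders' Nr4a1 levels lay below all FSL vehicle levels, while the other pairs set against each other below overlapped.

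Nr4a3, a nuclear receptor related to Nr4a1, was among the 3 early genes of smallest p between responders and non-responders. It had 29.8, 49.1 and 59.9 CPM in responders, 71.4, 48 and 71.7 CPM in non-responders, 64.3, 39.3 and 58 CPM in FSL vehicle and 62.9, 54 and 71.0 CPM in FRL vehicle. Responder 1 was the lowest library, and all groups overlapped.

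The other 10 neuronal genes are given by their range over the 12 libraries. Junb, another AP-1 subunit, lay between 50.2 and 119 CPM, and Fosb, which gives the long-lived ΔFosB protein of repeated stimulation, between 5.67 and 16.4 CPM. Egr2 lay between 2.19 CPM in FRL vehicle 1 and 26.4 CPM in FRL vehicle 2, which are libraries of the same group. Egr4 lay between 3.03 and 12 CPM, and Egr3 between 16 and 23.6 CPM. Nr4a2, the remaining NR4A receptor, lay between 30.3 and 154 CPM and, like Nr4a3, was lowest in responder 1. Homer1, a scaffold of the postsynaptic density, lay between 153 and 305 CPM. Nptx2, a secreted pentraxin that clusters AMPA receptors, lay between 19.8 and 39.3 CPM in 11 libraries and at 78.4 CPM in responder 1. Ptgs2, the inducible cyclooxygenase, lay between 29.0 and 56.7 CPM, and Inhba, which encodes the activin A subunit, between 1.93 and 3.92 CPM.

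**Figure D2:**
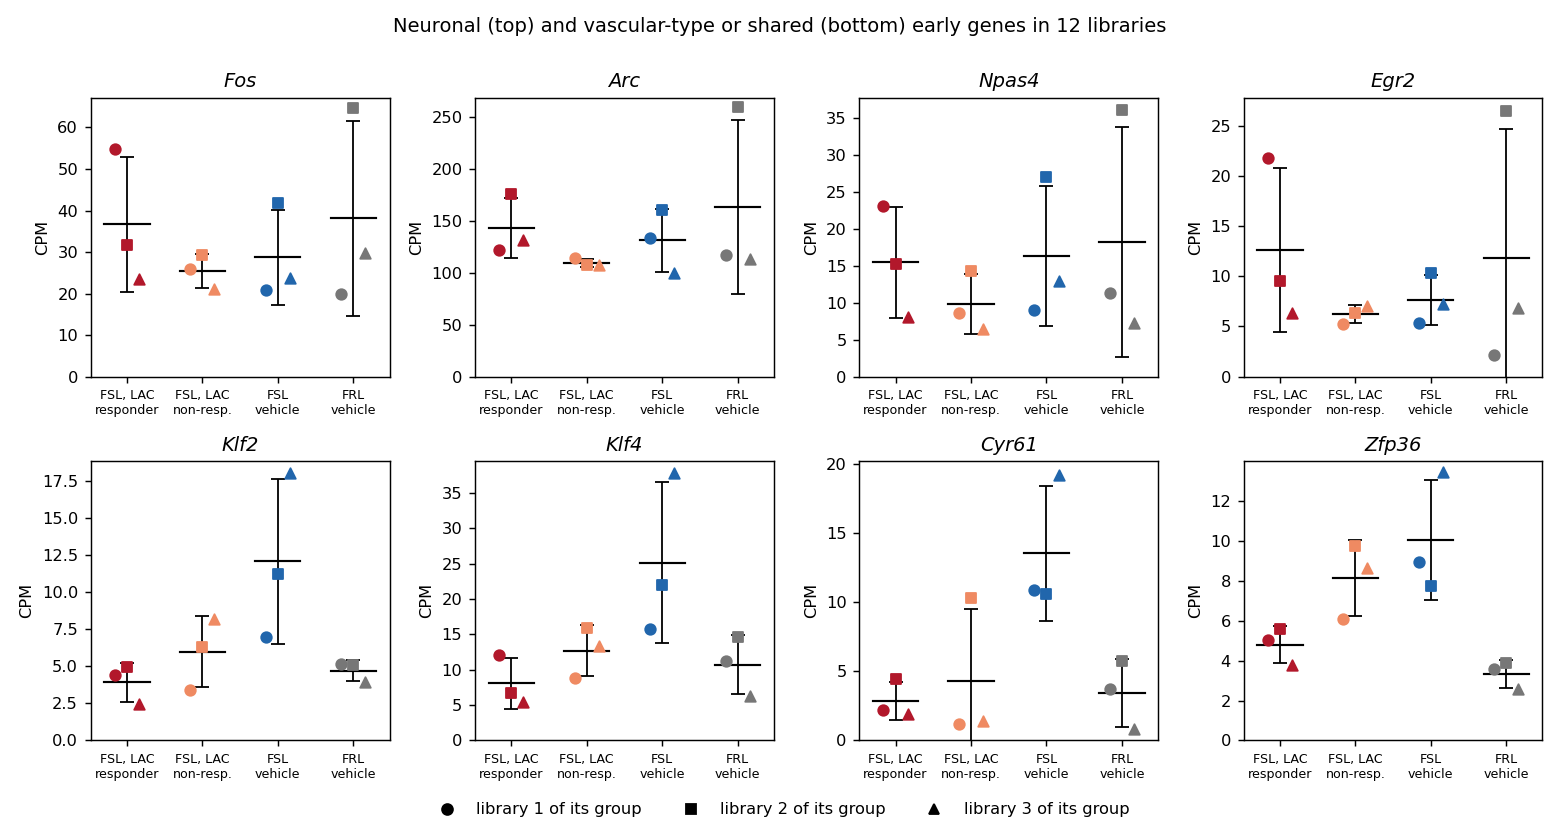
CPM of 4 neuronal early genes (Fos, Arc, Npas4, Egr2) and of 4 vascular or shared ones (Klf2, Klf4, Cyr61, Zfp36), 1 point per library, with the group mean as a line and the SD of 3 libraries as an error bar, drawn no lower than 0. Fos is highest at 64.7 CPM in FRL vehicle 2, and Klf2, Klf4, Cyr61 and Zfp36 are highest at 18.1, 37.8, 19.2 and 13.4 CPM in FSL vehicle 3.

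All 4 vascular early genes had their highest group mean in FSL vehicle. Klf2, the flow-induced factor that keeps endothelium quiescent, had 4.41, 4.96 and 2.43 CPM in responders, 3.43, 6.33 and 8.20 CPM in non-responders, 6.98, 11.2 and 18.1 CPM in FSL vehicle and 5.15, 5.07 and 3.92 CPM in FRL vehicle. Klf4, its close relative, had 12.1, 6.69 and 5.40 CPM in responders, 8.84, 16 and 13.3 CPM in non-responders, 15.7, 21.9 and 37.8 CPM in FSL vehicle and 11.2, 14.7 and 6.30 CPM in FRL vehicle. For both genes all FSL vehicle libraries lay above all responder and all FRL vehicle libraries, and they overlapped with non-responders.

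Cyr61, listed as Ccn1 in RefSeq, encodes a secreted matrix protein induced by stretch. It had 2.21, 4.46 and 1.89 CPM in responders, 1.19, 10.3 and 1.41 CPM in non-responders, 10.9, 10.6 and 19.2 CPM in FSL vehicle and 3.73, 5.73 and 0.852 CPM in FRL vehicle. The FSL vehicle libraries were above all other libraries, though non-responder 2 came close to the lowest of them. Klf6, an injury-induced factor of endothelium and other cells, averaged 79.7 ± 16.9 CPM in responders, 79.9 ± 19.8 CPM in non-responders, 101 ± 26.3 CPM in FSL vehicle and 84.7 ± 23.9 CPM in FRL vehicle (SD, n = 3 each), and its groups overlapped throughout. The highest-to-lowest ratio over 12 libraries was 1.86 for Klf6 and 22.5 for Cyr61, with a median of 7.22 over the 4 genes.

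Among the genes shared by many cell types, Zfp36, Atf3 and Sik1 were among the 3 early genes of smallest p in at least 1 comparison. Zfp36 encodes tristetraprolin, which destabilises AU-rich mRNAs, and its promoter with a CArG box and an EGR site is printed above. It had 5.02, 5.58 and 3.78 CPM in responders, 6.07, 9.76 and 8.62 CPM in non-responders, 8.93, 7.74 and 13.4 CPM in FSL vehicle and 3.60, 3.87 and 2.56 CPM in FRL vehicle. Responders and FRL vehicle each lay below every non-responder and FSL vehicle library. Atf3, a stress-induced repressor of the CREB family, had 1.23, 1.36 and 0.675 CPM in responders, 2.24, 5.80 and 2.40 CPM in non-responders, 4.06, 3.74 and 6.30 CPM in FSL vehicle and 3.73, 3.07 and 1.19 CPM in FRL vehicle. The responders were below all libraries of the other FSL groups and at low counts, 10, 11 and 5 counts in the 3 libraries. Sik1, a kinase that shuts off CREB coactivators, had 21.9, 20.0 and 17.3 CPM in responders, 18.5, 25.7 and 23.3 CPM in non-responders, 27.6, 22.8 and 50.7 CPM in FSL vehicle and 19.2, 24.8 and 24.4 CPM in FRL vehicle. FSL vehicle 3 stood far above the rest for Sik1, and the responders were just below the lowest FSL vehicle library.

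Dusp1, a phosphatase that switches off MAP kinases and carries the CRE printed above, had 70.6, 78.9 and 46.4 CPM in responders, 48.8, 84.4 and 51.4 CPM in non-responders, 63.8, 80.2 and 83.9 CPM in FSL vehicle and 44.4, 108 and 47.5 CPM in FRL vehicle. Jun, the main partner of FOS in AP-1, is given in the same way although the rule for named genes does not hold it, chosen after its values were seen. It had 77.2, 89.4 and 96.9 CPM in responders, 99.2, 112 and 103 CPM in non-responders, 103, 94.4 and 131 CPM in FSL vehicle and 114, 76.1 and 86.7 CPM in FRL vehicle. Dusp1 overlapped between all groups, and Jun overlapped in all pairs except responders and non-responders, where responders were lower.

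Responder 1 had the lowest level of 5 of the remaining shared genes, Fosl2, Dusp4, Dusp5, Ier2 and Ier5. The AP-1 subunits Fosl2 and Jund lay between 7.84 and 28.1 CPM and between 60.3 and 92.7 CPM. The MAP kinase phosphatases Dusp4, Dusp5 and Dusp6 lay between 9.92 and 22.7, 1.47 and 11.1, and 37.5 and 81.1 CPM. Ier2 and Ier5, growth factor response genes, lay between 5.64 and 13.3 and between 46.9 and 80.9 CPM. Of the growth arrest genes, Btg2 lay between 24.0 and 47.9 CPM, Gadd45b between 10.9 and 18.4 CPM and Gadd45g between 6.56 and 14.2 CPM. Klf10, a TGF-β response factor, lay between 28.5 and 55.3 CPM, the pseudokinase gene Trib1 between 5.53 and 16.8 CPM, and Maff, a small MAF factor, between 0.901 and 5.32 CPM.

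Responders against FSL vehicle asked how the treated rats called responders differed from untreated rats of their line. Klf2, Klf4, Cyr61, Atf3, Zfp36, Sik1 and Maff were lower in responders with an unadjusted edgeR p under 0.05, while 0 of the 16 neuronal genes reached that level. Atf3 averaged 1.09 ± 0.36 CPM in responders and 4.70 ± 1.39 CPM in FSL vehicle (SD, n = 3 each), 4.25-fold lower. Its log2 fold change was -2.09 ± 0.51 (SE), with an edgeR adjusted p of 0.266. Klf2 averaged 3.93 ± 1.33 CPM in responders and 12.1 ± 5.59 CPM in FSL vehicle, and Klf4 averaged 8.07 ± 3.57 CPM in responders and 25.2 ± 11.4 CPM in FSL vehicle. For these 3 genes, and for Zfp36, Cyr61 and Sik1, every responder library lay below every FSL vehicle library. The log2 fold changes of Klf2 and Klf4 were -1.61 ± 0.40 and -1.64 ± 0.41, with an edgeR adjusted p of 0.266 for both. Zfp36 was lower by 2.09-fold, with a log2 fold change of -1.06 ± 0.27 and the same adjusted p. Cyr61 was at -2.24 ± 0.79, Sik1 at -0.77 ± 0.26 and Maff at -1.21 ± 0.52, with edgeR adjusted p of 0.282, 0.275 and 0.347.

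By edgeR, 0 of the 38 early genes passed an adjusted p under 0.05 in this comparison, and 0% of the 11750 genes tested did. DESeq2 called 189 genes and 3 early genes, Klf4, Klf2 and Atf3, with adjusted p of 0.0173, 0.0237 and 0.0278, and limma-voom called 0 of each. At an unadjusted p under 0.05 the 7 early genes were all lower, against 13.8% of all genes in either direction, 4.61% higher and 9.17% lower. They came from 3 of the 4 vascular, 4 of the 18 shared and 0 of the 16 neuronal genes. The groups did not overlap for 6 early genes, all lower, against 12.5% of all genes tested, 6.37% higher and 6.14% lower. The median log2 fold change was -1.63 over the vascular genes, -0.19 over the shared, 0.06 over the neuronal and 0.01 over all genes tested.

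Among the neuronal genes in responders against FSL vehicle, 10 had a positive and 6 a negative log2 fold change, against 52% positive and 48% negative over all genes. They ran from 0.71 ± 0.71 (SE) for Egr2 to -0.51 ± 0.35 for Nr4a2, and without responder 1 Egr2 was at 0.05 and Nr4a2 at -0.15. Fos was at 0.35 ± 0.44, Arc at 0.12 ± 0.30, Npas4 at -0.09 ± 0.61, Egr1 at -0.38 ± 0.29 and Nr4a1 at -0.37 ± 0.31. The edgeR adjusted p over the 16 genes was 0.506 or more. Dusp1 was at -0.22 ± 0.34 and Jun at -0.32 ± 0.16. Without FSL vehicle 3 the vascular median was -1.22, with Klf2 at -1.21 and Klf4 at -1.23 and unadjusted edgeR p of 0.010 and 0.012. Also without FSL vehicle 3, Cyr61 was at -1.90, Sik1 at -0.36 and Maff at -0.53, with unadjusted edgeR p of 0.052, 0.068 and 0.300. When each of the 6 libraries was left out in turn, Maff had an unadjusted p under 0.05 in 2 of the 6 fits and Cyr61 in 3. Without FSL vehicle 1 edgeR called 349 genes, among them Klf2 and Klf4.

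Most markers of vessel and meningeal cells were lower in responders, as the vascular early genes were. Between responders and FSL vehicle, 11 of 15 endothelial markers were lower at an unadjusted edgeR p under 0.05, with a median log2 fold change of -0.61. The same held for 7 of 12 mural markers, with a median of -0.88, and for 12 of 12 meningeal markers, with a median of -2.84. Endothelial markers summed to between 511 and 533 CPM in responders and between 586 and 1025 CPM in FSL vehicle, and meningeal markers to between 142 and 383 CPM in responders and between 406 and 4007 CPM in FSL vehicle. Of these lists Col1a2 was at 0 in all libraries and Ogn at 0 to 10 counts, and all endothelial and mural markers tested had more than 3 counts in each library. Of the other marker lists, 9 of 11 choroid plexus markers were lower at that level, with a median of -4.46, 4 of 7 thalamic markers were lower and 1 higher, with a median of -0.55, and 2 of 11 microglia markers were lower, with a median of -0.18. By contrast, 6 of 9 oligodendrocyte markers were higher in responders, with a median of 0.65. The part of these lists in the early genes' values was not tested. In bulk tissue, fewer cells of a type and less RNA per cell cannot be told apart. With the mean of the meningeal markers in the fit, Klf2 was at -0.53, Klf4 at -0.41, Cyr61 at -1.30, Zfp36 at -0.55 and Atf3 at -1.39, with unadjusted edgeR p of 0.216, 0.161, 0.213, 0.127 and 0.056. With the mean of the endothelial markers instead, Klf2 was at -0.68, Klf4 at -0.71 and Atf3 at -1.54. Atf3 alone of the 38 then kept an unadjusted edgeR p under 0.05, at 0.032. The endothelial mean log2 CPM was 4.56 to 4.65 in responders and 4.80 to 5.74 in FSL vehicle, without overlap. That fit therefore does not separate group from marker level well, for Atf3 as for the other genes. The meningeal mean log2 CPM was 2.38 to 3.79 in responders and 3.55 to 6.60 in FSL vehicle. With so little overlap the same limit holds for the meningeal fit.

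**Figure D3:**
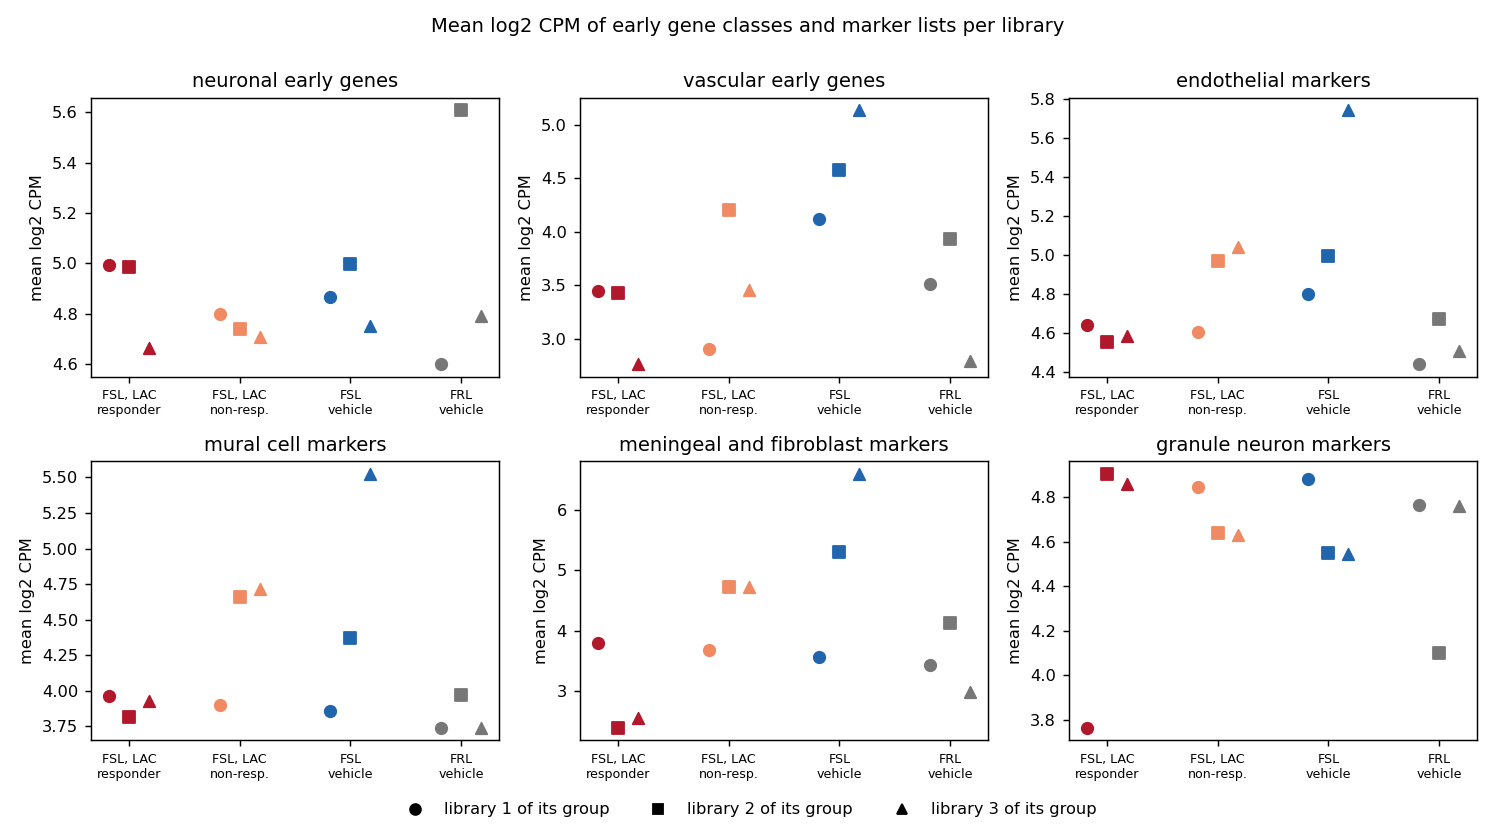
Mean log2 CPM per library of neuronal and vascular early genes and of marker lists, 1 point per library, by group. Vascular early genes peak at 5.14 in FSL vehicle 3, where endothelial markers reach 5.74 and meningeal markers 6.60, and neuronal early genes peak at 5.61 in FRL vehicle 2.

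Non-responders against FSL vehicle made the same comparison for treated rats called non-responders. Klf2, Klf4 and Sik1 were lower in non-responders at an unadjusted edgeR p under 0.05. Klf2 averaged 5.99 ± 2.40 CPM in non-responders and 12.1 ± 5.59 CPM in FSL vehicle (SD, n = 3 each), a log2 fold change of -1.02 ± 0.39 (SE), and Klf4 averaged 12.7 ± 3.59 CPM in non-responders and 25.2 ± 11.4 CPM in FSL vehicle, at -0.99 ± 0.40. Sik1 averaged 22.5 ± 3.69 CPM in non-responders and 33.7 ± 14.9 CPM in FSL vehicle, at -0.58 ± 0.26. The edgeR adjusted p was 0.976 for all 3. By edgeR 0 of 38 early genes and 0% of all genes tested passed an adjusted p under 0.05, DESeq2 called 2 genes and 0 early genes, and limma-voom called 0 of each. The 3 early genes at an unadjusted p under 0.05 compare with 4.21% of all genes, 1.89% higher and 2.32% lower. The 5 early genes whose groups did not overlap, 2 higher and 3 lower, compare with 7.8% of all genes, 4.68% higher and 3.11% lower.

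Those 5 were Cyr61, Egr4 and Nr4a1, lower in non-responders, and Gadd45b and Inhba, higher. Cyr61 was at -1.65 ± 0.76, with an edgeR adjusted p of 0.976. Egr4, an EGR factor, averaged 4.24 ± 1.05 CPM in non-responders and 7.41 ± 2.03 CPM in FSL vehicle, at -0.81 ± 0.39. Nr4a1 averaged 43.8 ± 3.05 CPM in non-responders and 60.5 ± 4.91 CPM in FSL vehicle, at -0.46 ± 0.31. Gadd45b and Inhba were both at 0.32, with SE of 0.17 and 0.26. Of the neuronal genes 5 of 16 were positive and 11 negative, against 48.9% and 51.1% of all genes, with a median of -0.12, and all 4 vascular genes were negative, with a median of -1.0, against -0.0039 over all genes tested. Fos was at -0.18 ± 0.45, Arc at -0.26 ± 0.30, Egr1 at -0.38 ± 0.29 and Npas4 at -0.75 ± 0.63.

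Same-numbered libraries of these 2 groups deviated together from their group means, although the labels name no pairing. In an alternative fit with the replicate number as a block across all groups, Cyr61 was at -2.14, with an unadjusted edgeR p of 0.014. In that fit Klf4 and Sik1 had an unadjusted p of 0.050 and 0.061. Without FSL vehicle 3 the vascular median was -0.59, and Klf2 and Klf4 were at -0.61 and -0.57 with unadjusted edgeR p of 0.136 and 0.178. Sik1 was at -0.16 without that library, with an unadjusted edgeR p of 0.386. Endothelial markers were lower at an unadjusted p under 0.05 for 2 of 15, mural markers for 1 of 12 and meningeal markers for 0 of 12, with medians of -0.33, -0.41 and -1.26. Oligodendrocyte markers were higher for 7 of 9, with a median of 0.79, and choroid plexus markers were at a median of 0.51 with 0 of 11 at that level.

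Responders and non-responders both had the same 3 FSL vehicle libraries as controls, so their values against FSL vehicle are not independent of each other. Klf2 was at -1.61 in responders and -1.02 in non-responders, Klf4 at -1.64 and -0.99, Zfp36 at -1.06 and -0.30, and Atf3 at -2.09 and -0.43. Set against each other directly, Atf3 and Zfp36 were lower in responders at an unadjusted edgeR p under 0.05. Atf3 averaged 1.09 ± 0.36 CPM in responders and 3.48 ± 2.01 CPM in non-responders (SD, n = 3 each), 3.16-fold lower, with a log2 fold change of -1.66 ± 0.52 (SE). Zfp36 averaged 4.79 ± 0.92 CPM in responders and 8.15 ± 1.89 CPM in non-responders, 1.69-fold lower, at -0.76 ± 0.27. The edgeR adjusted p was 0.992 for both.

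By edgeR 0 of 38 early genes and 0% of all genes tested passed an adjusted p under 0.05 between responders and non-responders, and DESeq2 and limma-voom also called 0 of each. The 2 early genes at an unadjusted p under 0.05, both lower, compare with 3.14% of all genes tested, 1.18% higher and 1.96% lower. The 6 early genes whose groups did not overlap compare with 11.3%, 5.76% higher and 5.54% lower. Those 6 were Arc and Homer1, higher in responders, and Atf3, Zfp36, Jun and Fosl2, lower. Arc averaged 143 ± 28.6 CPM in responders and 110 ± 3.83 CPM in non-responders, at 0.38 ± 0.30, and Homer1 averaged 229 ± 11.0 CPM in responders and 200 ± 13.7 CPM in non-responders, at 0.20 ± 0.17. Jun averaged 87.8 ± 9.95 CPM in responders and 105 ± 6.59 CPM in non-responders, at -0.25 ± 0.16.

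The neuronal genes had a median of 0.18 between responders and non-responders, with 11 of 16 positive and 5 negative, against 50.3% and 49.7% of all genes, and the vascular genes a median of -0.59, against 0.00097 over all genes tested. Without non-responder 2 the vascular median was -0.12, and over all 6 left-out libraries it lay between -0.87 and -0.12. Fos was at 0.53 ± 0.44, Npas4 at 0.66 ± 0.63 and Egr2 at 1.02 ± 0.72, and responder 1 had the highest of the 6 libraries for all 3. Without responder 1 they were at 0.12, 0.25 and 0.36. Nr4a3 averaged 46.3 ± 15.3 CPM in responders and 63.7 ± 13.6 CPM in non-responders, at -0.46 ± 0.26, with an unadjusted edgeR p of 0.103, and was at -0.22 without responder 1. Klf2 was at -0.60 ± 0.41, Klf4 at -0.65 ± 0.42, Cyr61 at -0.59 ± 0.81 and Klf6 at -0.0027 ± 0.26. Without non-responder 2 Atf3 was at -1.08 and Cyr61 turned to 1.13, with unadjusted edgeR p of 0.056 and 0.142. Choroid plexus markers were lower in responders for 11 of 11 at an unadjusted p under 0.05, with a median of -5.01, meningeal markers for 4 of 12, with a median of -1.51, endothelial markers for 1 of 15, with a median of -0.27, and mural markers for 0 of 12, with a median of -0.32.

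**Figure D4:**
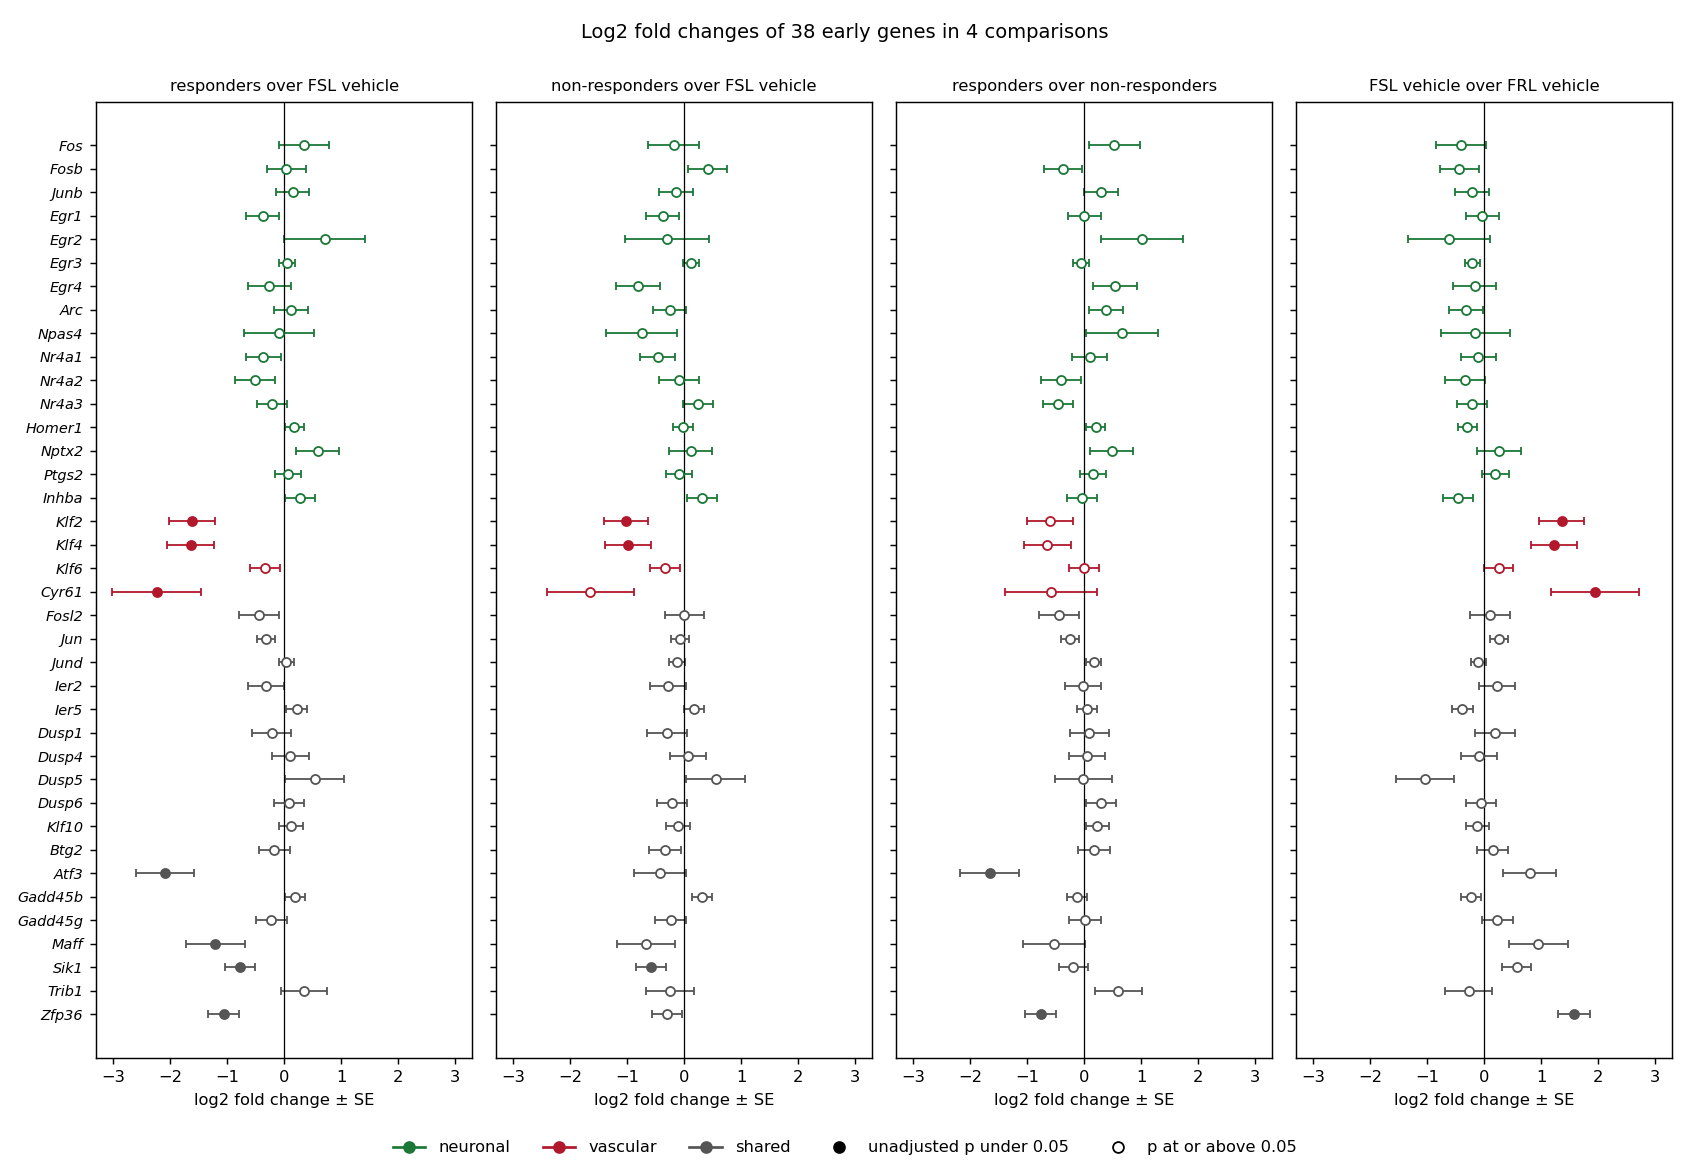
Log2 fold change of the 38 early genes tested in each of 4 comparisons, as points with the SE as bars, filled where the unadjusted edgeR p is under 0.05. Klf2, Klf4 and Cyr61 lie at -1.61, -1.64 and -2.24 in responders against FSL vehicle and at 1.35, 1.22 and 1.94 in FSL vehicle against FRL vehicle, and no neuronal point is filled.

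FSL vehicle against FRL vehicle compared the 2 lines without treatment. Zfp36, Klf2, Klf4 and Cyr61 were higher in FSL vehicle at an unadjusted edgeR p under 0.05, and 0 of 16 neuronal genes were different at that level. Zfp36 averaged 10 ± 3.01 CPM in FSL vehicle and 3.34 ± 0.69 CPM in FRL vehicle (SD, n = 3 each), 2.97-fold higher. Its log2 fold change was 1.57 ± 0.28 (SE) and its edgeR adjusted p 0.0918, the smallest of any early gene in the 4 comparisons. Klf2 averaged 12.1 ± 5.59 CPM in FSL vehicle and 4.71 ± 0.69 CPM in FRL vehicle, at 1.35 ± 0.40, with an edgeR adjusted p of 0.251. For all 4 genes every FSL vehicle library lay above every FRL vehicle library. Klf4 averaged 25.2 ± 11.4 CPM in FSL vehicle and 10.7 ± 4.20 CPM in FRL vehicle, at 1.22 ± 0.41, with an edgeR adjusted p of 0.267. Cyr61 averaged 13.5 ± 4.88 CPM in FSL vehicle and 3.44 ± 2.45 CPM in FRL vehicle, at 1.94 ± 0.78, with an edgeR adjusted p of 0.303.

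By edgeR 0 of 38 early genes passed an adjusted p under 0.05 between the lines, against 0.0681% of all genes tested, which was 8 genes. DESeq2 called 161 genes and 1 early gene, Zfp36, with an adjusted p of 0.00173, and limma-voom called 5 genes and 0 early genes. The 4 early genes at an unadjusted p under 0.05, all higher, compare with 13.9% of all genes, 9.35% higher and 4.53% lower. The 7 whose groups did not overlap, 5 higher and 2 lower, compare with 13.8%, 7.57% higher and 6.23% lower. Taken over both directions, the count at an unadjusted p is not above its background, and for higher genes alone it is near it. Beside those 4, Atf3 was higher without overlap, at 0.79 ± 0.47, and Ier5 and Dusp5 were lower without overlap, at -0.38 ± 0.18 and -1.04 ± 0.51. The median log2 fold change was 1.29 over the vascular genes, 0.12 over the shared, -0.21 over the neuronal and -0.0083 over all genes.

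The neuronal median rested on 1 library. With all libraries 2 of 16 neuronal genes were positive and 14 negative, against 48.4% and 51.6% of all genes, among them Fos at -0.40 ± 0.44, Arc at -0.32 ± 0.30 and Egr2 at -0.62 ± 0.72. Without FRL vehicle 2, the library with low Prox1 and the highest mean of neuronal early genes, the median turned to 0.21, with Fos at 0.22, Arc at 0.19, Egr1 at 0.39 and Npas4 at 0.81. Without FSL vehicle 3 the vascular median was 0.88, with Klf2 at 0.95, Klf4 at 0.81 and Cyr61 at 1.61 and unadjusted edgeR p of 0.031, 0.068 and 0.089, and Zfp36 was at 1.31 with an unadjusted edgeR p of 0.001.

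Between the lines, 12 of 15 endothelial markers were higher in FSL vehicle at an unadjusted p under 0.05, with a median of 0.71. The same held for 8 of 12 mural markers, with 1 lower and a median of 0.86, and for 11 of 12 meningeal markers, with a median of 2.45. Choroid plexus markers were higher for 10 of 11, with a median of 5.07, microglia markers for 6 of 11, with a median of 0.42, and thalamic markers for 3 of 7, with a median of 0.77. Endothelial markers summed to between 586 and 1025 CPM in FSL vehicle and between 462 and 546 CPM in FRL vehicle. With the meningeal mean in the fit Zfp36 was at 1.2, Klf2 at 0.54, Klf4 at 0.30 and Cyr61 at 1.31, with unadjusted edgeR p of 0.002, 0.150, 0.240 and 0.140. With the endothelial mean Zfp36 was at 0.99, with an unadjusted edgeR p of 0.007, and the vascular median was 0.28. The endothelial mean log2 CPM was 4.80 to 5.74 in FSL vehicle and 4.44 to 4.67 in FRL vehicle, so that fit does not separate line from marker level well. The meningeal mean log2 CPM was 3.55 to 6.60 in FSL vehicle and 2.98 to 4.13 in FRL vehicle, so its fit has the same limit in part. FSL vehicle is the control in one contrast and the line tested in the other, so the higher values here and the lower values in responders share its 3 libraries.

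Of 30 further activity-regulated genes 29 were in the files. In responders against FSL vehicle 2 of the 29 were lower at an unadjusted edgeR p under 0.05, against 13.8% of all genes tested: Ier3, an inhibitor of cell death, at -1.55 ± 0.59 and Mcl1, a BCL2 family member, at -0.29 ± 0.13. In non-responders against FSL vehicle 1 was higher, against 4.21% of all genes, the clock-linked repressor gene Nfil3, at 0.47 ± 0.20. Between the lines Gem, a small GTPase gene, was higher in FSL vehicle at 0.85 ± 0.37 and Rgs2, a regulator of G protein signals, lower at -0.32 ± 0.14, so 2 of 29 against 13.9% of all genes. Between responders and non-responders 0 of 29 reached that level, against 3.14% of all genes, and the edgeR adjusted p was 0.307 or more in the first of these comparisons.

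Of 18 factors upstream of the early genes, such as CREB, serum response factor and calcium-dependent kinases, 14 were in the files. Camk4, which encodes a calcium-dependent kinase of the nucleus, averaged 85.3 ± 10.7 CPM in responders, 62.9 ± 6.94 CPM in non-responders, 62.2 ± 4.87 CPM in FSL vehicle and 80.6 ± 23.2 CPM in FRL vehicle (SD, n = 3 each). It was at 0.46 ± 0.18 in responders against FSL vehicle and 0.44 ± 0.18 against non-responders, with edgeR adjusted p of 0.314 and 0.992. In FSL vehicle against FRL vehicle it was at -0.37 ± 0.18, with an unadjusted edgeR p of 0.060. At an unadjusted edgeR p under 0.05 it was 1 of 14 in responders against FSL vehicle, against 13.8% of all genes tested. Against non-responders it was also 1 of 14, against 3.14% of all genes. In non-responders against FSL vehicle and between the lines 0 of 14 reached that level, against 4.21% and 13.9%. The other 13 had an unadjusted p of 0.05 or more in all 4 comparisons.

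In the RefSeq annotation of GRCr8, 8 of the 39 genes overlap another annotated gene, among them Klf2 with Eps15l1 and Atf3 with Garin4, as well as Arc, Klf4, Fosb, Klf10, Dusp5 and Nr4a3. The authors' counting used the build rn5, and the sources used here do not give its annotation or strand setting. Whether reads of such neighbours entered the counts of an early gene was not tested.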

How the data were processed

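RNA of ventral dentate gyrus was sequenced in 12 libraries, from total RNA made into stranded, ribosomal-RNA-depleted libraries per the labels' protocols. The authors deposited raw read counts, whole numbers for each gene symbol with no normalization. Per the submitters' processing notes, FastQC 0.11.3, Trimmomatic 0.33, TopHat2 2.0.9, HTSeq 0.6.1 and edgeR 3.12.0 were used, with the build rn5 and with roles, annotation and strand setting not given in the sources used here. Totals and tests leave out 5 summary lines per file: reads in no gene (47.7% to 52.7% of all reads), ambiguous reads (0.0756% to 0.106%), reads with several alignments (24.3% to 28.4%), and 2 lines at 0.

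Differences were tested with edgeR 4.0.16 (R 4.3.3) over all 12 libraries, with TMM factors between 0.975 and 1.04. Its group-aware filter on low counts left 11750 of 17172 genes, and the robust quasi-likelihood fit, read two-sided, had 1 mean per group. P-values were adjusted by Benjamini-Hochberg over all genes tested, and called under 0.05. Across genes the biological coefficient of variation came to 0.178. Error of a log2 fold change is its size over the square root of F (SE). CPM used TMM-scaled totals, and mean log2 CPM a prior count of 2. A count of 3 in a library came to 0.368 to 0.511 CPM, which covers counting error only. The fit was run on simulated counts with the same biological variation for every gene and no differences in tissue content between libraries. For responders against FSL vehicle it called 60 of 89 genes changed by a log2 of 1. It called 109 of 110 changed by a log2 of 2, with 7 false calls. Marker lists varied within groups of the real libraries, which the simulation did not cover. Promoters were searched in a RefSeq table of build GRCr8, with no genome.

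The early genes, their classes and the marker lists were chosen with earlier results of these data known. Values in every library are given for 9 early genes named in the plan and for the 3 of smallest unadjusted p in each comparison, and genes of other lists are named where their unadjusted p was under 0.05, at most 3 a list. No list was given a test of its own.

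Alternatives were RLE size factors, no low-count filter, DESeq2 1.42.0, limma-voom 3.58.1, a fit to just the 2 groups compared, a block for the replicate number, the mean of meningeal or endothelial markers as a covariate, leaving out 2 libraries low in granule neuron markers (responder 1, FRL vehicle 2) or 3 high in choroid plexus markers (non-responder 1, FSL vehicle 1 and 3), and leaving out each library. Without the choroid-high libraries FSL vehicle 2 alone was left of its group, so fits with that group give effect sizes only. Deviations of same-numbered libraries from their group means correlated across genes at 0.581, 0.212 and 0.426 between non-responders and FSL vehicle. Between responders and FSL vehicle they correlated at -0.338, -0.108 and -0.263. The labels name no pairing, and the main tests used none. The replicate block alone used these numbers, across all groups.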

Additional observations from a re-analysis of the deposited data

How the results depend on the processing

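Of the alternatives to the calls on early genes, 60 gave the same count and 4 moved it. DESeq2 called 3 early genes in responders against FSL vehicle, among 189 genes, and 1 between the lines, among 161. It called 2 genes in non-responders against FSL vehicle. Leaving out 1 library gave 0 to 2 early genes among 0 to 349 genes in responders against FSL vehicle, and 0 to 1 among 2 to 271 between the lines. Between the lines 8 genes became 5 with limma-voom, 2 with the compared groups only, 4 with the replicate block, 2 with the meningeal covariate, 0 with the endothelial covariate, 2 without the libraries low in granule markers and 17 without those high in choroid markers. Without the choroid-high libraries there were 36 genes in responders against FSL vehicle and 11 against non-responders. The replicate block changed no call on an early gene. The causes were not tested.

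Early genes at an unadjusted p under 0.05 moved as follows. In responders against FSL vehicle (7), there were 3 with the meningeal and 1 with the endothelial covariate, and 4 to 8 without 1 library. These counts need not be of the same genes. With the meningeal covariate Klf2, Klf4, Cyr61, Zfp36 and Atf3 were all above that level, so the 3 were not all among the 7. In non-responders against FSL vehicle (3), there were 1 with the endothelial covariate and 0 to 5 without 1 library. Between responders and non-responders (2), there were 5 with the compared groups only, 4 with the meningeal and 1 with the endothelial covariate, 4 without the granule-low libraries and 1 to 4 without 1 library. Between the lines (4), there were 1 with the endothelial covariate, 7 without the granule-low libraries, and 2 to 6 without 1 library.

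Class medians of log2 fold change kept the sign of the vascular genes except between responders and non-responders with the meningeal covariate, at 0.086. With that covariate the vascular median was -0.47 in responders against FSL vehicle and 0.42 between the lines, and with the endothelial one -0.69 and 0.28. The shared median with the meningeal covariate was 0.19 in responders and -0.10 in non-responders against FSL vehicle, 0.14 between them and -0.19 between the lines. It was 0.031 in responders against FSL vehicle with the endothelial covariate, -0.086 in non-responders against FSL vehicle without the choroid-high libraries, and -0.13 to 0.0026 between responders and non-responders without 1 library. The neuronal median was -0.25 in non-responders against FSL vehicle without the choroid-high libraries and -0.20 to 0.017 without 1 library. Between the lines it was 0.21 without the granule-low libraries and -0.39 to 0.21 without 1 library.

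The following log2 fold changes of single genes turned sign. Every early gene tested had an adjusted p over 0.05 in the edgeR fit to all libraries, so none of them had been called. In responders against FSL vehicle, Npas4 was at 1.04 and Dusp1 at 0.36 with the meningeal covariate, and Arc at -0.0075, Npas4 at 0.16 and Dusp1 at 0.19 with the endothelial one. Fos was at -0.062 without the granule-low libraries. Without the choroid-high libraries Fos was at -0.19, Arc at -0.17 and Egr1 at 0.025. In non-responders against FSL vehicle, Fos was at 0.078 with the meningeal covariate and Sik1 at 0.11 without the choroid-high libraries. Between responders and non-responders, Egr1 was at -0.0045 and Cyr61 at 0.014 with limma-voom, Egr1 at -0.0075 with the compared groups only, -0.0039 with the replicate block and -0.069 without the granule-low libraries. There the meningeal covariate gave Klf2 0.080, Klf4 0.092 and Cyr61 0.055, and leaving out the choroid-high libraries gave Dusp1 -0.065. Between the lines, limma-voom gave Egr1 0.043, Npas4 0.018 and Nr4a1 0.029, and Dusp1 was at -0.20 with the meningeal and -0.23 with the endothelial covariate. Without the granule-low libraries Fos was at 0.22, Arc at 0.19, Egr1 at 0.40, Npas4 at 0.81 and Nr4a1 at 0.48, and without the choroid-high ones Fos was at 0.14 and Npas4 at 0.56.

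Leaving out 1 library gave, in responders against FSL vehicle, -0.49 to 0.49 for Npas4, -0.060 to 0.30 for Arc and -0.061 to 0.73 for Fos, and -0.36 to 0.20 for Fos in non-responders against FSL vehicle. Between responders and non-responders it gave -0.083 to 0.38 for Dusp1, -0.070 to 0.11 for Egr1, -1.08 to 1.13 for Cyr61 and -0.073 to 0.21 for Nr4a1. Between the lines it gave -0.023 to 0.73 for Dusp1, -0.78 to 0.22 for Fos, -0.52 to 0.19 for Arc, -0.30 to 0.39 for Egr1, -0.73 to 0.81 for Npas4 and -0.36 to 0.48 for Nr4a1. With 3 libraries a group, precision differed between early genes. Between the lines the largest SEs were those of Cyr61, Egr2 and Npas4, at 0.78, 0.72 and 0.61. Maff and Atf3, at low counts, had SEs of 0.52 and 0.47.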

Other observations

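Over all 38 early genes tested, FRL vehicle 2 had the highest of the 12 levels for 19 and FSL vehicle 3 for 9, and the lowest levels were most often in responder 1, responder 3 and FRL vehicle 1, with 7 genes each. These are counts over genes that share a library, with no test.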
